A study of Canis lupus familiaris with 12 samples.

Results

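Aminoacyl-tRNA synthetases were examined in C2 cells, a line grown from a canine mast cell tumour, during 72 h of treatment with masitinib. The genes were selected by symbol: the genes of the annotation used here with the name of a synthetase, including both subunits of the cytosolic phenylalanine enzyme and the bifunctional glutamate and proline enzyme, together with the scaffold proteins AIMP1 and AIMP2. This gave 35 of 15115 named genes. Of these, 18 encode cytosolic enzymes, 2 encode the scaffold proteins and 15 encode mitochondrial enzymes, whose symbols end in the suffix 2.

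C2 cells carry a tandem duplication in the juxtamembrane unit of KIT, the receptor for stem cell factor, which leaves the receptor active without its ligand, and masitinib is a tyrosine kinase inhibitor that targets KIT. RNA of cultures taken before treatment (0 h) and after 12, 24 and 72 h with 100 nM masitinib was hybridised to 12 Affymetrix Canine Genome 2.0 arrays, 3 for each time. All cultures, including those at 0 h, are of this single cell line, so p-values measure the spread between cultures of one line. Later times without masitinib were not analysed here, so the drug and the hours in culture cannot be told apart.

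Aminoacyl-tRNA synthetases attach each amino acid to its transfer RNA, the step that matches amino acids to codons. Vertebrate cells do this separately in the cytosol and in mitochondria, and with few exceptions the enzymes for each place come from different nuclear genes. Several cytosolic enzymes are held together with AIMP1, AIMP2 and EEF1E1 in the multisynthetase complex, whereas the others work as free proteins. The mitochondrial enzymes charge the transfer RNAs used to translate the few proteins encoded in the mitochondrial genome.

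Values are the authors' log2 expression values, so a difference of 1 is a 2-fold change. For a gene with several probe sets the brightest was used, and probe sets differ in response, so levels of different genes were not set against each other. A gene was said to rise or fall when the limma adjusted p was under 0.001 over all probe sets and the change exceeded 1.5-fold. Array medians lay between 5.889 and 5.947, arrays of the same time correlated across probe sets with Pearson's r of 0.9952 to 0.9979, and no array pair was identical. Of 9 mast cell markers 8 were measured, 7 of them above the 80th percentile of signal, and their mean level was 12.31 to 12.46 on the arrays at 0 h and 13.08 to 13.35 at 72 h. All 11 measured markers of T cells, B cells, macrophages and fibroblasts lay below the 60th percentile. Of the 3 epithelial and 3 endothelial markers only KRT8 and TEK did, while EPCAM lay at the 78.1 percentile and KDR at the 90.8 percentile. The array measures bulk RNA, so fewer cells with a transcript and less transcript per cell cannot be told apart.

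Transcripts of most cytosolic enzymes were lower in treated cells, and those of 14 of the 15 mitochondrial enzymes did not pass at any time. Of the 20 cytosolic enzymes and scaffold proteins, 10, 13 and 11 fell after 12, 24 and 72 h of treatment. These counts are 50%, 65% and 55% of the group, beside 6.3%, 10% and 11% of all named genes that fell at the same times. One of them, QARS1, rose at 24 h. Rises were called for 4.26%, 8.01% and 8.73% of all named genes at 12, 24 and 72 h. None of the 15 mitochondrial enzymes fell by limma at any time, and 1 of them, FARS2, rose at 24 h.

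The median log2 change of the cytosolic enzymes and scaffold proteins was -0.60, -0.65 and -0.62 at 12, 24 and 72 h. For the mitochondrial enzymes it was -0.04, -0.08 and -0.08, and for all named genes 0.01, 0.03 and 0.02. On single arrays the cytosolic median relative to the mean at 0 h ran from -0.59 to -0.69 over the 9 treated arrays, and from -0.03 to 0.03 over the 3 arrays at 0 h. The mitochondrial median ran from -0.19 to 0.03 over the treated arrays. The 2 ranges of the treated arrays did not overlap between the classes.

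**Figure D1:**
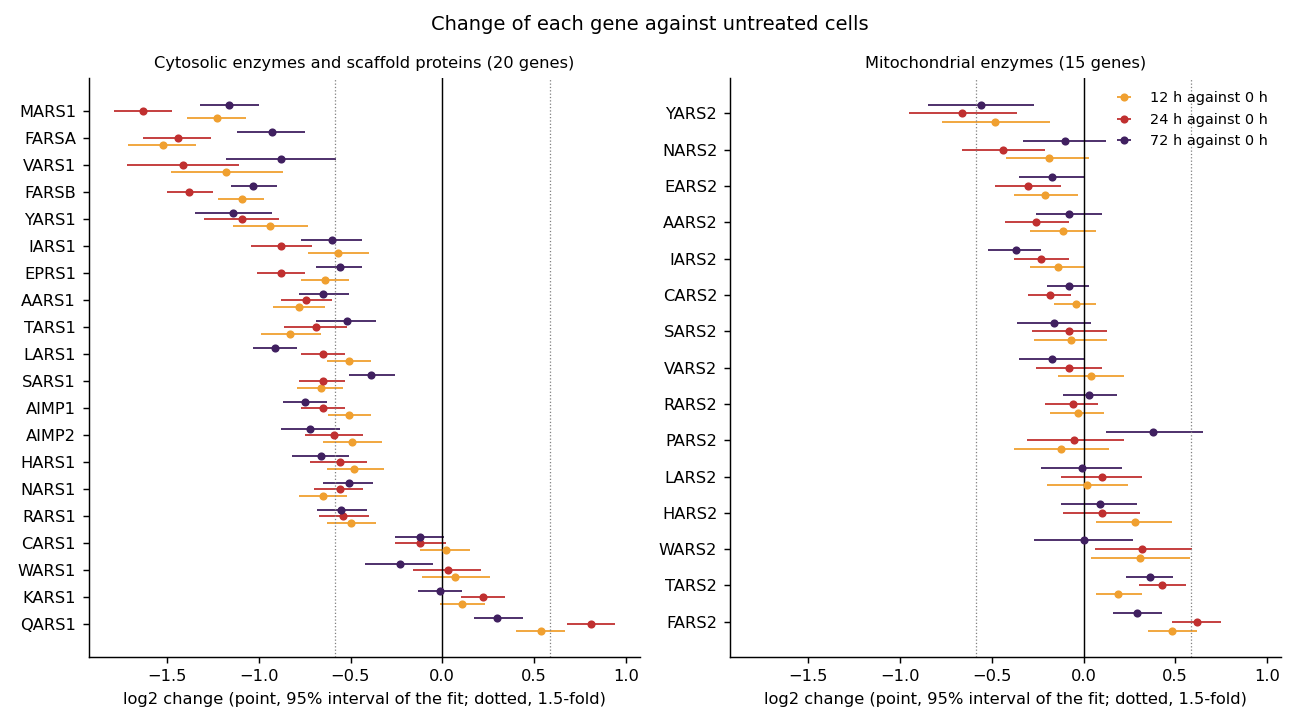
Log2 change of each gene against 0 h (horizontal axis) at 12, 24 and 72 h, as points with the 95% interval of the fit, with cytosolic enzymes and scaffold proteins on the left, mitochondrial enzymes on the right and dotted lines at 1.5-fold. Most points on the left lie below 0, with MARS1 at -1.63 and FARSA at -1.52 the farthest, and most on the right lie near 0.

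Without a limit on the fold, 17, 17 and 16 of the 20 cytosolic enzymes and scaffold proteins passed the adjusted p of 0.001 at 12, 24 and 72 h, beside 17.6%, 26.8% and 28.4% of all named genes. Among the 15 mitochondrial enzymes 1, 2 and 2 passed in this way. At a looser adjusted p of 0.05 without a limit on the fold, 4, 8 and 5 mitochondrial enzymes passed, beside 32.8%, 42.5% and 44.8% of all named genes. At an unadjusted p under 0.05 the numbers were 6, 9 and 5, beside 6108, 7420 and 7645 of all 15115 named genes.

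Quantile normalization sets all arrays to nearly the same distribution, and the counts depend on it. The bacterial poly-A control transcripts were higher in treated arrays than at 0 h by 0.29, 0.60 and 0.47 on the log2 scale at 12, 24 and 72 h. When arrays were scaled to these controls, the median of all named genes moved to -0.28, -0.57 and -0.45, and 16, 17 and 18 of the 20 cytosolic enzymes and scaffold proteins fell and none rose. With the same scaling 1, 10 and 5 of the 15 mitochondrial enzymes fell, beside 14.3%, 46.8% and 30.7% of all named genes, and FARS2 no longer rose. The class medians under this scaling were -0.90, -1.25 and -1.1 for the cytosolic group and -0.34, -0.68 and -0.55 for the mitochondrial enzymes. This scaling shifts all genes of an array alike, so it cannot alter the distance between the classes. All changes below are on the deposited scale and are therefore relative to the bulk of transcripts on the array.

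The phenylalanine enzyme of the cytosol, a tetramer of FARSA and FARSB chains, was among the most lowered. FARSA, its catalytic subunit, measured 9.78, 9.80 and 9.80 at 0 h, 8.24, 8.23 and 8.34 at 12 h, 8.44, 8.14 and 8.47 at 24 h, and 8.83, 8.79 and 8.96 at 72 h. Every treated array lay below every array at 0 h, and the arrays at 72 h lay above those at 12 and 24 h. FARSA fell by 1.52 (SE 0.0858, n = 3 per time, limma adjusted p = 4.81e-08) at 12 h, a 2.87-fold decrease, by 1.44 (2.43e-08) at 24 h and by 0.93 (1.28e-06) at 72 h. All 4 of its probe sets fell at each time, with log2 changes from -1.62 to -1.52 at 12 h.

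FARSB, the second subunit, measured 12.04, 12.07 and 12.08 at 0 h, then 10.99, 10.93 and 10.99, 10.75, 10.65 and 10.66, and 11.01, 11.11 and 10.99 at 12, 24 and 72 h. The groups of treated arrays did not overlap with 0 h, and the lowest values were those at 24 h. It fell by 1.09, 1.38 and 1.03 (SE 0.0582, limma adjusted p = 3.11e-08, 1.22e-09 and 1.39e-08). Of its 3 probe sets 2 fell, while the other gave changes between -0.12 and 0.07.

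MARS1, which charges the methionine transfer RNAs for both initiation and elongation in the cytosol, measured 10.00, 10.17 and 10.17 at 0 h and 8.90, 8.88 and 8.86 at 12 h. At 24 h the values were 8.60, 8.38 and 8.45, and at 72 h 8.93, 8.90 and 9.02. Treated arrays all lay far under the arrays at 0 h, and those at 24 h were the lowest of all. MARS1 fell by 1.23, 1.63 and 1.16 (SE 0.073, limma adjusted p = 7.25e-08, 1.99e-09 and 3.7e-08), and its change at 24 h, a 3.1-fold decrease, was the largest among the 35 genes. Its other probe set fell less, by 0.80, 0.88 and 0.76, so the rank rests on the brighter one.

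**Figure D2:**
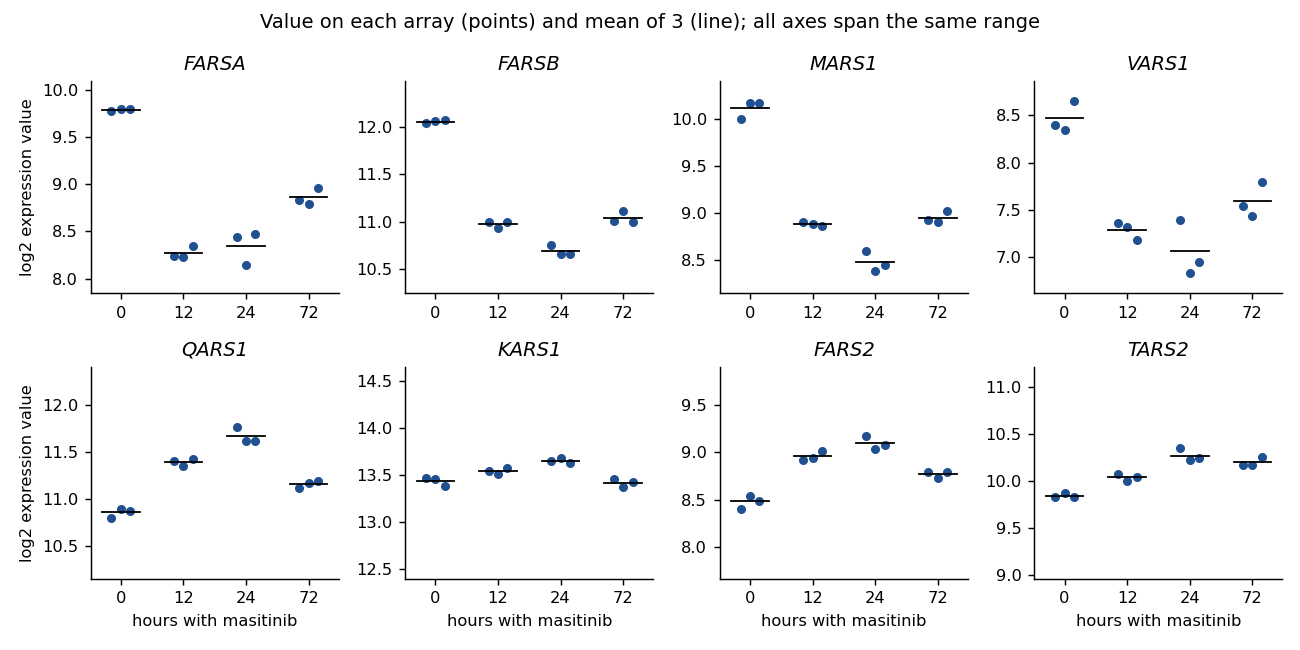
Log2 expression value on each array (points) and the mean of 3 arrays (line) against hours with masitinib for 8 genes, all vertical axes spanning the same range. FARSA, FARSB, MARS1 and VARS1 dropped by 12 h and were lower at 72 h than at 0 h, QARS1 and FARS2 were highest at 24 h, and KARS1 stayed between 13.37 and 13.68.

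VARS1, the cytosolic valine enzyme, had values of 8.40, 8.35 and 8.65 at 0 h, 7.36, 7.32 and 7.18 at 12 h, 7.39, 6.83 and 6.95 at 24 h and 7.54, 7.43 and 7.79 at 72 h. Treated and untreated arrays did not overlap, but the spread between cultures was wider than for the genes above, and VARS1 has a single probe set. It fell by 1.18, 1.41 and 0.88 (SE 0.14, limma adjusted p = 2.79e-05, 2.95e-06 and 1.87e-04). The change at 72 h no longer passed without the third array at 0 h (-0.79, adjusted p = 0.00121), without the first (-0.86, adjusted p = 0.00113) or the second array at 72 h (-0.80, adjusted p = 0.00136).

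For YARS1, the tyrosine enzyme, the arrays at 0 h read 9.76, 9.83 and 9.75, and the treated arrays 8.91, 8.76 and 8.86 at 12 h, 8.85, 8.53 and 8.68 at 24 h and 8.53, 8.57 and 8.83 at 72 h. The 72 h values were not separated from those at 24 h, and all treated values lay under those at 0 h. YARS1 fell by 0.94, 1.09 and 1.14 (SE 0.0947, limma adjusted p = 7.01e-06, 8.36e-07 and 4.89e-07). AARS1, the alanine enzyme, read 10.82, 10.91 and 10.81 at 0 h and between 10.03 and 10.28 on the 9 treated arrays. It fell by 0.78, 0.74 and 0.65 (SE 0.0638, limma adjusted p = 1.15e-06, 7.64e-07 and 2.5e-06). Of the 7 AARS1 probe sets 4 fell at each time, and of the 5 YARS1 probe sets 3, 4 and 4 fell. FARSA, FARSB, MARS1, VARS1, YARS1 and AARS1 were the 6 genes that fell at all 3 times. The share of all named genes that fell at all 3 times was not computed, so this count has no background beside it.

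TARS1, the threonine enzyme, had values of 11.29, 11.17 and 11.14 at 0 h, 10.40, 10.38 and 10.35 at 12 h, 10.49, 10.5 and 10.54 at 24 h and 10.77, 10.5 and 10.77 at 72 h. It was lowest at 12 h, where the 3 cultures lay close together. TARS1 fell by 0.83 at 12 h and 0.69 at 24 h (SE 0.0765, limma adjusted p = 3.24e-06 and 8.29e-06), and its change of -0.52 at 72 h was under 1.5-fold. SARS1, the serine enzyme, showed the same order, with 11.57 to 11.59 at 0 h, 10.86 to 10.95 at 12 h, 10.86 to 10.98 at 24 h and 11.14 to 11.22 at 72 h. It fell by 0.66 and 0.65 at 12 and 24 h (SE 0.0574), and the change at 72 h was -0.39. NARS1, the asparagine enzyme, fell by 0.65 at 12 h (SE 0.0607), with changes of -0.56 and -0.51 later that were under 1.5-fold. Another probe set of SARS1 and another of NARS1 did fall at 72 h, by 1.03 and 0.80, and for TARS1 another probe set fell by 0.76 at that time.

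HARS1, the histidine enzyme, was called only at 72 h, although most of its change was present at 12 h. Its arrays read 10.00, 10.04 and 10.00 at 0 h, 9.65, 9.45 and 9.52 at 12 h, 9.52, 9.33 and 9.5 at 24 h and 9.32, 9.33 and 9.40 at 72 h. All treated arrays lay below 0 h, but the change passed 1.5-fold only at 72 h (-0.66, SE 0.0704, limma adjusted p = 4.93e-06), after -0.48 and -0.56 at 12 and 24 h. The steps from 12 to 24 h and from 24 to 72 h were -0.09 and -0.10, with overlapping arrays. Among the 11 cytosolic enzymes outside the multisynthetase complex, 8, 7 and 6 fell at the successive times. Falls were called for 6.3%, 10% and 11% of all named genes. The remaining genes of the 11 enzymes are CARS1 and WARS1, given below.

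Of 7 measured enzymes of the multisynthetase complex, 2, 4 and 3 fell at the successive times. Besides MARS1 these were EPRS1, IARS1 and LARS1. The shares of all named genes that fell were 6.3%, 10% and 11%. EPRS1, which joins the glutamate and proline enzymes in one chain, read 11.91, 11.98 and 11.89 at 0 h, 11.24, 11.31 and 11.31 at 12 h, 11.12, 11 and 11.02 at 24 h and 11.34, 11.34 and 11.41 at 72 h. The lowest arrays were those at 24 h, and no treated array reached the level at 0 h. It fell by 0.64 and 0.88 at 12 and 24 h (SE 0.0585, limma adjusted p = 2.94e-06 and 6.77e-08), and at 72 h its change of -0.56 was just under 1.5-fold. Another EPRS1 probe set fell at each time, by 0.65, 0.98 and 0.66. A further probe set of nearly the same mean signal as the chosen one passed at no time, with changes of -0.26, -0.55 and -0.40.

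LARS1, the leucine enzyme, took a different course. It read 11.48, 11.50 and 11.42 at 0 h, 10.97, 10.91 and 10.99 at 12 h, 10.87, 10.79 and 10.80 at 24 h and 10.5, 10.57 and 10.59 at 72 h. Each time point lay under the one before it with no overlap. LARS1 changed by -0.51 at 12 h, under 1.5-fold, and fell by 0.65 at 24 h and by 0.91 at 72 h (SE 0.0564, limma adjusted p = 8.37e-07 and 3.2e-08). IARS1, the isoleucine enzyme, with 9.38 to 9.49 at 0 h, was lowest at 24 h with 8.69, 8.39 and 8.59, and fell by 0.88 at 24 h and 0.60 at 72 h (SE 0.0755). Without the second array at 0 h the change of IARS1 at 72 h was -0.57 and no longer passed. Of its 5 probe sets 3 fell at 24 h and 3 at 72 h. The second brightest passed at no time, with changes of -0.38, -0.57 and -0.45.

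RARS1, the arginine enzyme of the complex, measured 11.69, 11.75 and 11.64 at 0 h and 11.07 to 11.24 on the treated arrays, with no overlap. Its changes of -0.50, -0.54 and -0.55 (SE 0.0619) passed the adjusted p but not 1.5-fold, whereas both of its other probe sets fell at 24 h, by 0.62 and 0.86, and at 72 h, by 0.60 and 0.71. KARS1, which encodes the lysine enzyme of both the cytosol and mitochondria, had 13.47, 13.46 and 13.38 at 0 h and 13.46, 13.37 and 13.43 at 72 h. These overlap, and its changes of 0.11, 0.22 and -0.01 had 95% intervals of -0.01 to 0.23, 0.10 to 0.34 and -0.13 to 0.11. None of its 4 probe sets passed, although at 24 h the other 3 had changes of 0.48, 0.51 and 0.46.

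The glutamine enzyme QARS1 was the enzyme of the complex that rose. Its arrays read 10.80, 10.90 and 10.87 at 0 h, 11.40, 11.35 and 11.43 at 12 h, 11.76, 11.62 and 11.62 at 24 h and 11.12, 11.17 and 11.19 at 72 h. All treated arrays lay above 0 h, highest at 24 h, and by 72 h they lay below those at 12 h. QARS1 rose by 0.81 at 24 h (SE 0.0612, limma adjusted p = 2.37e-07), a 1.75-fold increase, and its changes at 12 and 72 h were 0.54 and 0.30. Of its 5 probe sets 3 rose at 24 h, and the range over all 5 was 0.23 to 0.85. With arrays scaled to the poly-A controls its change at 24 h was 0.21 and did not pass (adjusted p = 0.137).

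The scaffold proteins, like LARS1, changed more by 12 h than from 12 to 24 h or from 24 to 72 h. AIMP1 read 11.11, 11.09 and 11.03 at 0 h, 10.54, 10.61 and 10.56 at 12 h, 10.41, 10.39 and 10.48 at 24 h and 10.34, 10.32 and 10.33 at 72 h. AIMP2 read 11.66, 11.70 and 11.58, then 11.25, 11.15 and 11.07, 11.05, 11.02 and 11.10, and 10.99, 10.79 and 10.99. In both, treated arrays lay below 0 h, and the means decreased from one time to the next. AIMP1 changed by -0.51 at 12 h and fell by 0.65 at 24 h and 0.75 at 72 h (SE 0.0544, limma adjusted p = 5.97e-07 and 1.42e-07). AIMP2 changed by -0.49 at 12 h and fell by 0.59 and 0.72 later (SE 0.0731, limma adjusted p = 2.2e-05 and 3.05e-06), where the change at 24 h was 1.51-fold and did not pass without the second array at 0 h or the second at 24 h (-0.57 in both). The other AIMP2 probe set fell at each time, including 12 h, by 0.63, 0.63 and 0.74. The second brightest AIMP1 probe set did not pass, with changes of -0.34, -0.52 and -0.55. EEF1E1, the third non-enzyme protein of the complex and not among the 35 genes, fell by 0.96, 1.21 and 1.03 (SE 0.058).

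Cysteine and tryptophan enzymes were the free cytosolic enzymes that did not pass at any time. CARS1 read 10.04, 10.07 and 10.01 at 0 h and 9.81, 10.02 and 9.92 at 72 h, which overlap, and the 95% interval of its change at 72 h was -0.26 to 0.01. None of its 6 probe sets passed. WARS1 read 9.62, 9.67 and 9.70 at 0 h and 9.28, 9.52 and 9.49 at 72 h, with changes of 0.07, 0.03 and -0.23 and a 95% interval at 72 h of -0.42 to -0.05. None of its 5 probe sets passed.

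Synthetases fall into 2 structural classes with unrelated catalytic folds. Of the 9 cytosolic genes with a class I enzyme 3, 5 and 5 fell, and of the 8 with a class II enzyme or subunit 6, 5 and 4 fell, with EPRS1, which holds both, left out. The medians at 72 h were -0.60 and -0.58. The difference between these groups was not tested. Of all named genes 6.3%, 10% and 11% fell at 12, 24 and 72 h.

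Over all probe sets of the cytosolic enzymes and scaffold proteins, 27, 37 and 35 of 78 fell at 12, 24 and 72 h, and 0, 3 and 0 rose. Over all 42924 probe sets, 5.05%, 8.66% and 9.39% fell and 3.83%, 6.96% and 8.28% rose. Genes with at least 1 fallen probe set numbered 11, 14 and 16 of 20. Such a count grows with the number of probe sets per gene. The share of all named genes with at least 1 fallen probe set was not computed, so this count has no background beside it. Among the 32 mitochondrial probe sets 0, 1 and 0 fell and 0, 1 and 0 rose. The mitochondrial probe set that fell, by 0.65 at 24 h, is a dim one of AARS2 at the 8.1 percentile of signal, whereas the brightest AARS2 probe set had a change of -0.26.

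The mitochondrial phenylalanine enzyme FARS2, a monomer, moved opposite to the cytosolic subunits. It read 8.40, 8.54 and 8.49 at 0 h, 8.92, 8.94 and 9.02 at 12 h, 9.17, 9.04 and 9.08 at 24 h and 8.79, 8.73 and 8.79 at 72 h. Treated arrays all lay above 0 h, highest at 24 h. FARS2 rose by 0.62 at 24 h (SE 0.0627, limma adjusted p = 3.65e-06), a 1.54-fold increase, with changes of 0.48 and 0.29 at 12 and 72 h. The change at 24 h was 0.58, under 1.5-fold, without the first array at 0 h or without the first at 24 h, and with poly-A scaling it was 0.02 (adjusted p = 0.912). The other FARS2 probe set did not pass at any time, with changes of 0.38, 0.55 and 0.09 at 12, 24 and 72 h.

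TARS2, the mitochondrial threonine enzyme, had values of 9.83, 9.88 and 9.83 at 0 h, 10.08, 10.00 and 10.04 at 12 h, 10.35, 10.23 and 10.25 at 24 h and 10.17, 10.17 and 10.26 at 72 h. Treated arrays lay above 0 h without overlap, but the changes of 0.19, 0.43 and 0.36 (SE 0.0586, limma adjusted p = 0.0252, 5.43e-05 and 2.41e-04) were under 1.5-fold. IARS2, the isoleucine enzyme, had changes of -0.14, -0.23 and -0.37 (SE 0.0681), and that at 72 h passed the adjusted p (limma adjusted p = 5.82e-04) but not the fold. Its arrays read 10.12, 10.12 and 10.02 at 0 h and 9.84, 9.60 and 9.70 at 72 h.

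The most negative changes among mitochondrial enzymes at each time belonged to YARS2, the tyrosine enzyme, whose changes were -0.48, -0.66 and -0.56 (SE 0.135). It read 6.18, 6.00 and 5.92 at 0 h, 5.30, 5.67 and 5.70 at 12 h, 5.35, 5.43 and 5.35 at 24 h and 5.52, 5.72 and 5.18 at 72 h. Treated arrays lay below 0 h, but the cultures at 12 and 72 h differed among themselves, and the change at 24 h did not pass (limma adjusted p = 0.00153). It did pass with the arrays of 0 and 24 h alone (adjusted p = 3.32e-04), with arrays shifted to one median (9.02e-04), and without the first array at 12 h (8.51e-04) or the second (8.52e-04) or the third array at 72 h (3.85e-04).

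NARS2, the asparagine enzyme, had a change of -0.44 at 24 h (limma adjusted p = 0.00482) and of -0.19 and -0.10 at the other times. EARS2 charges mitochondrial glutamate transfer RNA and also loads the glutamine one, whose glutamate is then amidated, and its changes were -0.21, -0.30 and -0.17. PARS2, the proline enzyme and the dimmest of the 35 genes, read 4.82 to 4.97 at 0 h and 5.24 to 5.31 at 72 h, a change of 0.38 that did not pass (limma adjusted p = 0.0225). WARS2, the tryptophan enzyme, had changes of 0.31, 0.32 and 0.00, with 0 h arrays as far apart as 5.65 and 6.23.

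The remaining mitochondrial enzymes did not pass either. CARS2, the cysteine enzyme, changed by -0.04, -0.18 and -0.08, and RARS2, the arginine enzyme, by -0.03, -0.06 and 0.03 with a 95% interval at 72 h of -0.11 to 0.18. LARS2, the leucine enzyme, gave 0.02, 0.10 and -0.01, and VARS2, the valine enzyme, 0.04, -0.08 and -0.17. AARS2, the alanine enzyme, gave -0.11, -0.26 and -0.08, and SARS2, the serine enzyme, -0.07, -0.08 and -0.16. HARS2, the histidine enzyme, gave 0.28, 0.10 and 0.09. At the looser adjusted p of 0.05 by limma, CARS2 and AARS2 at 24 h (0.0149 and 0.026) and HARS2 at 12 h (0.0477) passed.

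Signal differed between the classes, and dim probe sets are less able to show a change. Cytosolic enzymes and scaffold proteins lay between the 69.9 and 99.6 percentiles of mean signal among all tested probe sets, with 19 of 20 over the 80th. Mitochondrial enzymes lay between the 34.6 and 94.8 percentiles, with 5 of 15 over the 80th and 7 under the 60th. The 5 bright ones, CARS2, FARS2, IARS2, RARS2 and TARS2, had median changes of -0.03, -0.06 and 0.03, and none of them fell. Among all 6587 named genes over the 65th percentile, a limit chosen after the values were seen, 11.1%, 17.2% and 18.6% fell at 12, 24 and 72 h. The part of signal in the difference between the classes was not tested.

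**Figure D3:**
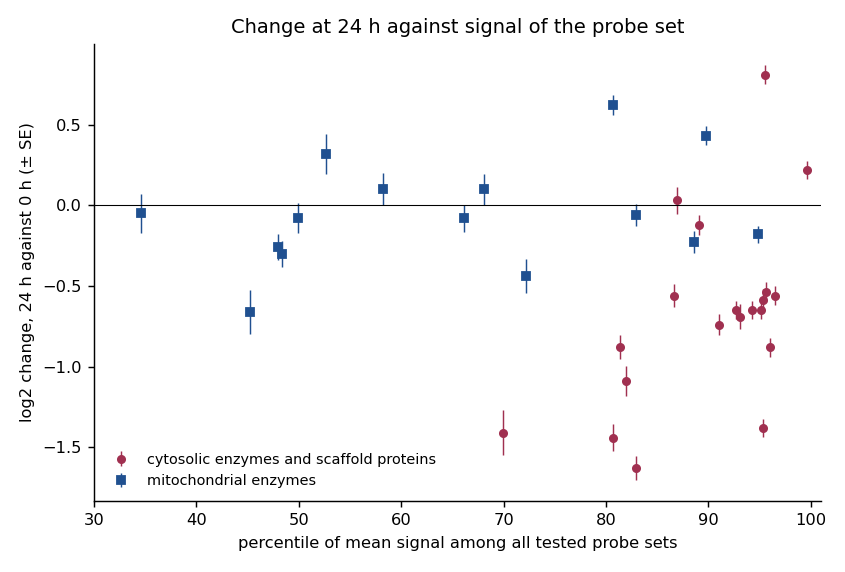
Log2 change at 24 h against 0 h with its standard error (vertical axis) against the percentile of mean signal of the probe set (horizontal axis) for cytosolic enzymes and scaffold proteins (circles) and mitochondrial enzymes (squares). Above the 80th percentile, the 5 mitochondrial enzymes lie between -0.23 and 0.62, while most cytosolic genes lie below -0.50.

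Markers of other cell types were followed on the same arrays. Mean levels over the 3 T cell markers were 5.57 to 5.98, over the 2 measured B cell markers 5.09 to 5.62, over the 3 macrophage markers 5.84 to 6.10 and over the 3 fibroblast markers 4.66 to 5.02 on all arrays. The 3 epithelial markers had mean levels of 6.20 to 6.29 at 0 h and 5.23 to 5.30 at 72 h, and the 3 endothelial markers 6.81 to 6.87 and 7.83 to 7.91. Within these lists KDR, a receptor tyrosine kinase, had means of 9.24, 9.11, 10.91 and 11.78 at 0, 12, 24 and 72 h. EPCAM, a surface adhesion protein, had means of 8.72, 9.52, 8.62 and 7.17, and the keratin KRT18 6.94, 7.72, 7.35 and 5.80. Mean levels of the 8 mast cell markers were 12.83 to 12.90 at 12 h and 13.12 to 13.26 at 24 h, above those at 0 h. The part of these shifts in the values of the synthetases was not tested.

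To set both compartments side by side for the same amino acid, the cytosolic value minus the mitochondrial value was taken on each array and expressed relative to 0 h. This could be done for 14 gene pairs and 13 amino acids, since phenylalanine gives FARSA and FARSB against FARS2. The difference moved below 0 in 13 of 14 pairs at 12 h, in 13 at 24 h and in 14 at 72 h, with medians of -0.56, -0.62 and -0.58. It lay below -0.50 in 8, 8 and 9 pairs. In 11 of 14 pairs at each time, all 3 treated arrays lay below all 3 arrays at 0 h. The share of other gene pairs with such a separation was not computed, so this count has no background beside it.

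Phenylalanine gave the widest separation at all 3 times, where the difference of FARSA from FARS2 was -2 ± 0.0127, -2.06 ± 0.147 and -1.23 ± 0.0729 (mean ± SD, n = 3 arrays) at 12, 24 and 72 h. For FARSB and FARS2 it was -1.57, -1.99 and -1.32. Here the cytosolic subunits fell while the mitochondrial enzyme had values above its start. Threonine gave -1.02 ± 0.0366, -1.12 ± 0.0826 and -0.88 ± 0.139, valine -1.22 ± 0.147, -1.34 ± 0.168 and -0.71 ± 0.0942, and leucine -0.53, -0.75 and -0.91. Histidine gave -0.75, -0.67 and -0.75, and the HARS1 and HARS2 genes are neighbours in the dog genome annotation.

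Alanine gave -0.67, -0.49 and -0.57, arginine -0.47, -0.47 and -0.58, serine -0.60, -0.58 and -0.22 and isoleucine -0.42, -0.65 and -0.23. For asparagine the difference was -0.46, -0.13 and -0.41. Cysteine was the exception, with differences of 0.06, 0.06 and -0.04 (SD at 0 h 0.0246), where all arrays at 12 and 24 h lay slightly above those at 0 h. For tryptophan it was -0.24, -0.29 and -0.23, within the SD of 0.314 between arrays at 0 h. Tyrosine gave -0.46, -0.43 and -0.58, with an SD of 0.423 at 72 h, and both of its enzymes had changes below 0.

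**Figure D4:**
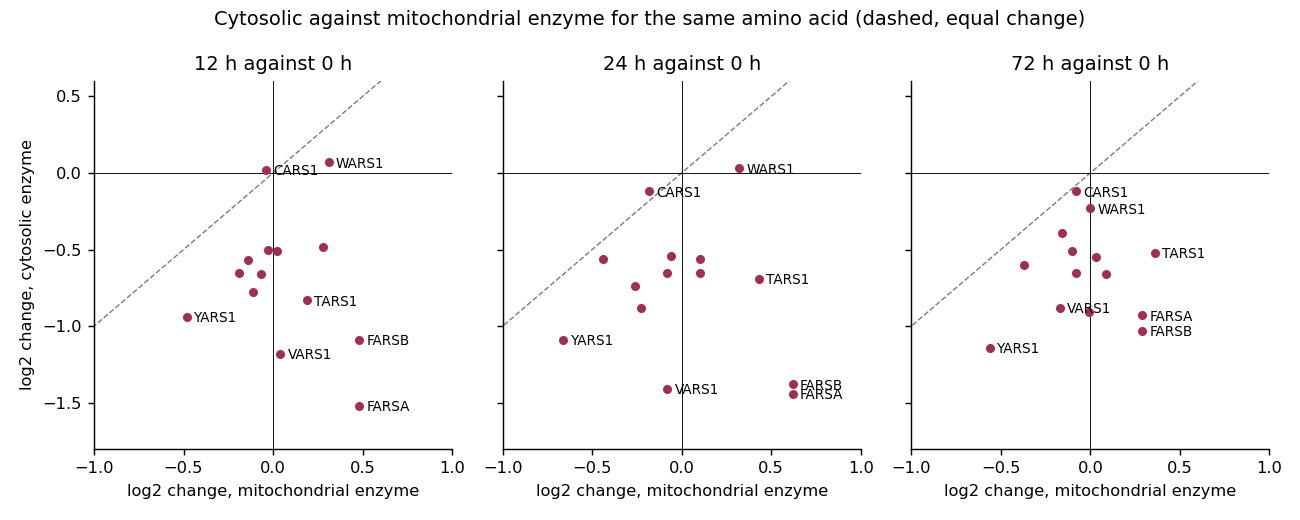
Log2 change of the cytosolic enzyme (vertical axis) against that of the mitochondrial enzyme for the same amino acid (horizontal axis) at 12, 24 and 72 h, 1 point per pair and 14 pairs, with the dashed line of equal change. Nearly all points lie under the line, the phenylalanine pairs farthest, and cysteine lies close to it.

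Between consecutive times no member passed. From 12 to 24 h 0 of 35 genes were called by limma, beside 4.51% of all named genes. At an unadjusted p under 0.05 there were 12, beside 4674 of all 15115 named genes. At an adjusted p under 0.05 there were 6 (20.4% of all named genes) and at 0.001 without a limit on the fold 0 (7.61%). From 24 to 72 h the call count was again 0, beside 3.78%. There were 16 at the unadjusted p (4830 of all 15115 named genes) and 14 at an adjusted p under 0.05 (21%). Without a limit on the fold 4 genes passed the adjusted p of 0.001 from 24 to 72 h, beside 7.17%, which were FARSA (0.51), FARSB (0.35), MARS1 (0.47) and QARS1 (-0.51), each back in the direction of its level at 0 h. The comparisons with 0 h share the arrays at 0 h, so their counts are not independent of each other.

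The genes that work beside the synthetases were taken from lists written from general knowledge. Of 11 measured accessory genes of aminoacylation, 2, 3 and 4 fell at 12, 24 and 72 h and none rose, with medians of -0.23, -0.15 and -0.25. Of all named genes 6.3%, 10% and 11% fell and 4.26%, 8.01% and 8.73% rose at these times. DTD2, which removes wrongly attached amino acids from transfer RNA, fell at all times, with log2 changes of -1.73, -3.14 and -2.05 (SE 0.109). SEPSECS, which makes selenocysteine on its transfer RNA, fell by 1.06 at 72 h, and QRSL1, a subunit of the mitochondrial amidotransferase that completes glutamine transfer RNA, fell by 0.97.

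Genes of transfer RNA transcription, processing and export fell in 16, 17 and 13 of 48 cases and rose in 1, 1 and 2, with medians of -0.35, -0.34 and -0.32. Among all named genes the shares were 6.3%, 10% and 11% for falls and 4.26%, 8.01% and 8.73% for rises. POP5, a subunit of the RNase P that trims the 5′ end, fell by 1.04, 1.41 and 1.37. ELAC2, which trims the 3′ end, fell by 0.93, 1.08 and 1.25, and TRNT1, which adds the terminal CCA, by 0.95, 1.20 and 1.13. MAF1, a repressor of RNA polymerase III, rose by 0.75, 0.95 and 1.01. TRMT10C, a subunit of the mitochondrial RNase P, rose by 0.94 at 72 h. XPOT, the export receptor for transfer RNA, fell by 0.64 and 0.75 at 12 and 24 h and had a change of -0.52 at 72 h.

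Of 61 genes that modify transfer RNA, 19, 21 and 19 fell and 0, 2 and 3 rose, with medians of -0.34, -0.32 and -0.41. Falls were called for 6.3%, 10% and 11% of all named genes and rises for 4.26%, 8.01% and 8.73%. The pseudouridine synthase PUS7 fell by 1.42, 2.25 and 1.38. PUS1, another such enzyme, fell by 1.28 at 72 h, and MTO1, which modifies mitochondrial transfer RNA, by 1.13. ELP5, a subunit of the Elongator complex, TRMT1L and the pseudouridine synthase PUS10 rose at 72 h, by 0.82, 0.64 and 0.71.

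The factors that use charged transfer RNA or end translation were listed by compartment. Of 16 cytosolic elongation and release factors 4, 5 and 5 fell, beside 6.3%, 10% and 11% of all named genes, with medians of -0.03, 0.04 and -0.11. ABCE1, which recycles ribosomes, fell by 1.46, 1.62 and 1.53, and the release factor ETF1 by 0.65, 0.92 and 1.1. EIF5A2 fell by 1.17 at 72 h, and GSPT2, a partner of ETF1, rose by 0.70. Of 11 mitochondrial factors 1, 3 and 5 fell, with medians of -0.24, -0.35 and -0.57, among them MRRF, the ribosome recycling factor, by 0.87, 1.31 and 0.84, GUF1 and MTRF1L by 0.83 and 0.81 at 72 h. The difference between these lists was not tested.

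The amino acid response is a programme of transcription under ATF4 that includes several cytosolic synthetase genes in mammalian cells. Of 31 measured genes on its list, in which no synthetase was counted, 10, 13 and 11 fell and 4, 3 and 4 rose, with medians of -0.30, -0.33 and -0.24. These counts stand beside 6.3%, 10% and 11% of all named genes that fell and 4.26%, 8.01% and 8.73% that rose. MTHFD2, an enzyme of mitochondrial folate metabolism, fell at all times, with log2 changes of -2.06, -3.15 and -3.13. PHGDH and PSAT1 of serine synthesis fell by 2.45 and 2.2 at 72 h. The asparagine synthetase ASNS, which makes the free amino acid, fell by 0.77, 1.91 and 1.70. NUPR1, PPP1R15A and VLDLR rose at all 3 times, by 1.80, 1.46 and 0.77 at 72 h. The ATF4 transcript itself had changes of -0.48, -0.52 and -0.21, under 1.5-fold, and the array does not measure its protein.

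**Figure D5:**
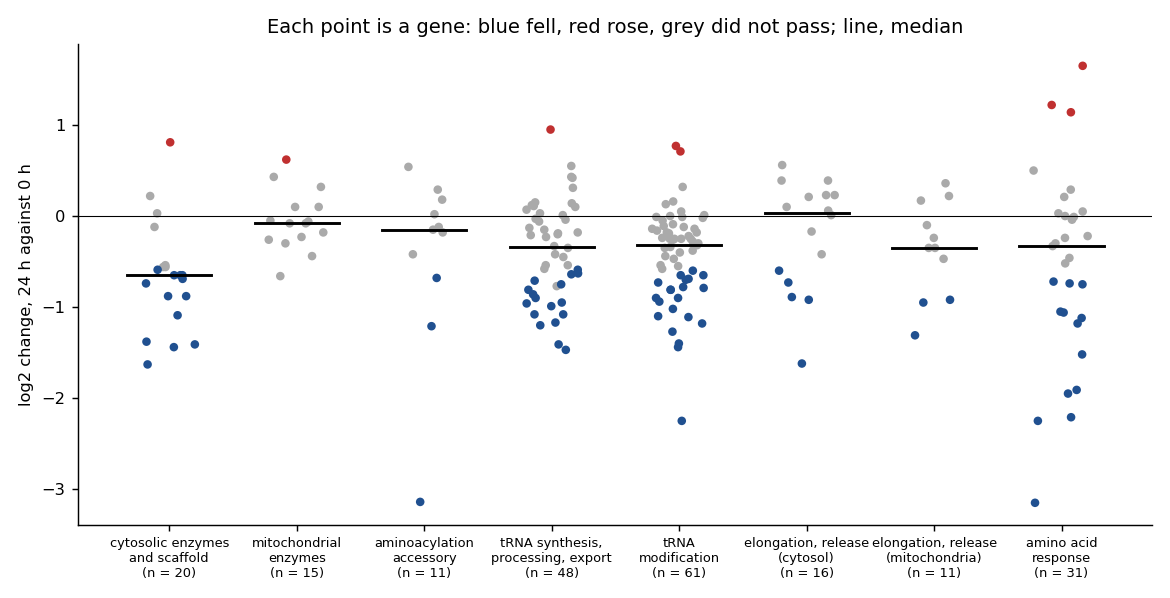
Log2 change at 24 h against 0 h (vertical axis) of each gene of the synthetase classes and of the 6 related lists (horizontal axis), where blue points fell, red points rose, grey points did not pass and lines are medians. The cytosolic synthetases have the lowest median, -0.65, beside -0.08 for the mitochondrial ones, while the widest range is in the amino acid response list.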

How the data were processed

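The authors processed the scanned arrays in Partek Genomics Suite 6.4 with its gcRMA workflow (background correction, quantile normalization, median polish), and the submitters' notes name Partek and RMA. They deposited 1 log2 expression value for each of 43035 probe sets on each array. Affymetrix controls (111) were kept apart, leaving 42924 probe sets, of which 29254 carried 1 gene symbol, 439 several and 13231 none. The highest mean over all arrays chose the probe set per gene. Entrez identifiers of 27680 probe sets matched RefSeq, and no symbol of the 35 genes changed.

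Fits used R 4.3.3 and limma 3.58.1 (lmFit, eBayes) over all 12 arrays with 1 coefficient per time point and Benjamini-Hochberg adjustment over the 42924 probe sets. Calls were made at an adjusted p under 0.001 with more than 1.5-fold change, the thresholds of the study. The study's analysis of variance was an alternative, as were scaling, the probe set, filters, the replicate block and leaving out each array. Genes named from related lists were the 3 largest called changes per direction at 72 h, plus EEF1E1, XPOT and ATF4, while QRSL1, ASNS and single cell type markers were named after their values were seen. Members and lists were chosen with earlier results of these data known.

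The number of arrays limits the precision, with a median residual SD of 0.112. The fit was tested on simulated data with known decreases at 72 h. At the thresholds of the calls it recovered 80% of the 2-fold and 99% of the 4-fold decreases, with 0 false calls. Changes smaller than 2-fold were not simulated.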

Additional observations from a re-analysis of the deposited data

How the results depend on the processing

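No called value changed direction under the alternatives run. Calls for the 20 cytosolic enzymes and scaffold proteins were 10, 14 and 11 at 12, 24 and 72 h and for the 15 mitochondrial enzymes 0, 1 and 0. A 2-fold limit left 4, 5 and 3 of the former and 0 of the latter at 24 h, by construction. Scaling to the poly-A controls gave 16, 17 and 18 and 1, 10 and 5, medians of -0.90, -1.25 and -1.1 and of -0.34, -0.68 and -0.55, and 2 cytosolic calls from 12 to 24 h. Median scaling moved the cytosolic medians to -0.64, -0.68 and -0.65, and the probe set of largest change, which is chosen for its size, to -0.64, -0.85 and -0.78 with 2 cytosolic calls from 24 to 72 h. Mitochondrial calls at 24 h were 2 with an adjusted p under 0.05, with arrays of the 2 times alone, with median scaling and with the probe set of largest change. Of 105 gene values 104 kept their call with cyclic loess (AIMP2 at 24 h lost it, at -0.58), 104 with the analysis of variance (VARS1 at 72 h lost it). All kept it without the dimmest 40% of probe sets, where PARS2 was dropped.

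With each array left out in turn, cytosolic calls ranged from 10 to 11, 13 to 15 and 10 to 12, and mitochondrial calls from 0 to 0, 0 to 2 and 0 to 0. From 12 to 24 h both classes had 0 to 0, and from 24 to 72 h 0 to 0 and 0 to 1, the last without the third array at 24 h. Cytosolic medians ranged from -0.62 to -0.58, -0.68 to -0.63 and -0.64 to -0.59, and mitochondrial medians from -0.05 to -0.02, -0.15 to -0.04 and -0.09 to -0.05. Over all these fits, 9 gene values gained and 8 lost their call.

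Replicate numbers shared between times did not pair the arrays: residuals of same-numbered arrays correlated at -0.329 to 0.411, over 0.1 in 5 of 18 pairs, and 6 of 12 arrays correlated best with their own number. With the replicate block the calls were 10, 14 and 11 and 0, 1 and 0, with medians of -0.60, -0.65 and -0.62 and of -0.04, -0.08 and -0.08, and all 105 gene values kept their call.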
